A study of Mus musculus with 2 samples.

Results

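The miRNA genes Mir107, Mir103-2 and Mir103-1 are the members of the miR-103/107 family that lie inside the pantothenate kinase genes Pank1, Pank2 and Pank3 of the mouse. They were chosen by name, by matching the Ensembl identifiers of the count tables to the mouse annotation, and all 3 have a row among 1973 miRNA genes. MicroRNA-seq of RNA under 30 nucleotides was made from intestine of B6NCrl embryos at embryonic day 16.5, male and female pooled, in 2 libraries that the labels give as biological replicates. Each library is a pool of embryos, 41 for replicate 2 and a number that the labels leave out for replicate 1, so differences between single embryos cannot be seen. Both form 1 group, labelled healthy, with no genetic change or treatment named, which leaves comparisons among genes and between the replicates.

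A microRNA is cut from a hairpin transcript and guides the silencing machinery to messenger RNAs that pair with its seed, the bases near its 5′ end. The Pank enzymes carry out the first and controlling step of coenzyme A synthesis, and miR-103 and miR-107 sit in their introns in vertebrates. In mice miR-103 and miR-107 are known for repressing Caveolin-1 in liver and fat, with effects on insulin sensitivity, and in human cells for repressing Dicer. They belong to a wider group of miRNAs that carry the letters AGCAGC at the 5′ end, with miR-15, miR-16, miR-195, miR-497, miR-322 and miR-503, several of which are known for restraining the cell cycle.

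The hairpins are shown because what tells these genes apart is a matter of single bases. They are RefSeq sequences on GRCm38.p6, written 5′ to 3′ on the strand of the gene, with both mature arms (5p first, 3p second) in capitals.
Mir107: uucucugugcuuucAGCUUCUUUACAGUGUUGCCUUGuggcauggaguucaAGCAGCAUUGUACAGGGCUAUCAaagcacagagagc
Mir103-2: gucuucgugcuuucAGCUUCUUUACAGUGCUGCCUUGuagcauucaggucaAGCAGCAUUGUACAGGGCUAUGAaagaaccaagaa
Mir103-1: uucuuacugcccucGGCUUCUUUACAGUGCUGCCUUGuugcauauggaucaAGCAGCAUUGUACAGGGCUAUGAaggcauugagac

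The mature arms are repeated here with the seed (bases 2 to 8) in capitals.
miR-107-3p: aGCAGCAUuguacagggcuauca
miR-103-3p, from both Mir103 genes: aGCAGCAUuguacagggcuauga
miR-107-5p: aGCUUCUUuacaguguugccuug
miR-103-2-5p: aGCUUCUUuacagugcugccuug
miR-103-1-5p: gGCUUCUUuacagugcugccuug

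All 3 genes share the seed GCAGCAU on the 3p arm and GCUUCUU on the 5p arm. Among 1738 mature sequences of 1058 genes in the RefSeq table, both seeds were found in these 3 genes only. The 3p arm, of 23 bases, was identical in Mir103-1 and Mir103-2 and differed from that of Mir107 by G22C (base of miR-103, position from the 5′ end of the arm, base of miR-107). On the 5p arm, Mir103-2 and Mir107 differed by C16U, and Mir103-2 and Mir103-1 by A1G, with the base of Mir103-2 given first in both. Over the whole hairpin, Mir107 was 83.9% identical to Mir103-2 and 80.5% to Mir103-1, and Mir103-1 was 80.2% identical to Mir103-2.

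These differences set which reads a count table can give to 1 gene. The longest stretch shared by the hairpins of Mir103-1 and Mir103-2 was 27 bases and held the whole 3p arm, while Mir107 shared 24 bases with each of them. The hairpins were searched, on both strands and without mismatches, against those of 2202 annotated miRNA genes. A read that starts at base 1 of the 3p arm was found at no other miRNA gene from a length of 22 bases for Mir107, but only from 25 bases for Mir103-1 and Mir103-2. From base 1 of the 5p arm, 18 bases, the shortest length tried, were enough for each of the 3 genes. A read of the full miR-103-3p therefore has 2 equally good places, and the tables hold reads that map to several loci outside the gene rows. These made up 26.2% of the reads of replicate 1 and 25.7% of those of replicate 2 (2290968 and 2796194 reads). The tables do not divide them by sequence, so how many were miR-103-3p was not tested, nor do they divide the counts of a gene by arm. The aligner and the mismatches it allowed are not known here, so it could not be checked that every miR-103-3p read went to that row. Reads of 18 to 21 bases from base 1 of the Mir107 3p arm match both Mir103 genes, so the count of Mir107 may leave out reads as well. The levels of all 3 genes below are of reads that the authors' counting gave to each locus. They are not read as levels of mature miR-103 or miR-107.

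**Figure D1:**
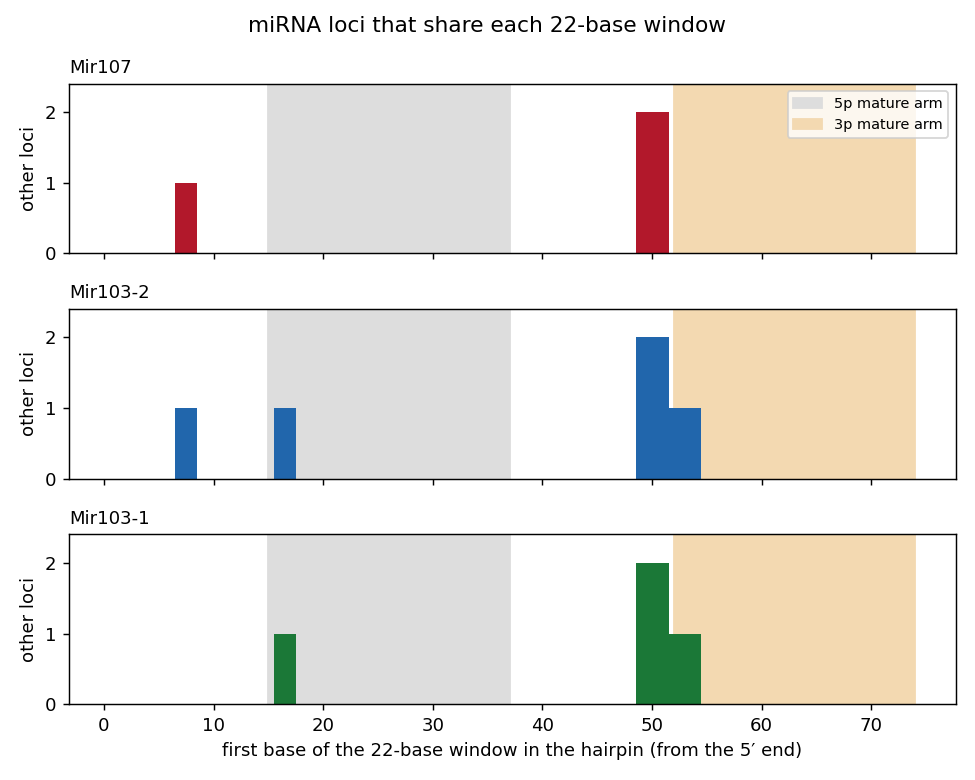
Number of other miRNA genes (y axis) that hold each 22-base window of the hairpin, against the first base of the window (x axis, from the 5′ end), for Mir107, Mir103-2 and Mir103-1. Shading marks the mature arms. For Mir107 5 of 66 windows were found elsewhere, for Mir103-2 10 of 65 and for Mir103-1 8 of 65, and only in the Mir103 genes does a window that starts at base 1 of the 3p arm (hairpin base 52) recur.

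The 3 hairpins lie on the strand of their host, each in intron 5 of the longest coding transcript, which has 7 exons in every Pank gene (GENCODE M21, mm10). Mir107 (ENSMUSG00000065594) lies on chromosome 19 from 34820687 to 34820773, minus strand, in an intron of Pank1 of 7282 bases, 326 bases after the upstream exon. Mir103-2 (ENSMUSG00000065563) lies on chromosome 2 from 131288052 to 131288137, plus strand, in an intron of Pank2 of 5801 bases, 454 bases after the upstream exon. Mir103-1 (ENSMUSG00000065553) lies on chromosome 11 from 35782396 to 35782481, plus strand, in an intron of Pank3 of 1740 bases, 688 bases after the upstream exon. In every coding transcript that spans a hairpin (3 of Pank1, 2 of Pank2 and 1 of Pank3) the hairpin is intronic. The intron number differs in 1 short transcript of Pank2 (intron 2) and in 1 of Pank1 (intron 4). The host messenger RNAs were not measured in these libraries.

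**Figure D2:**
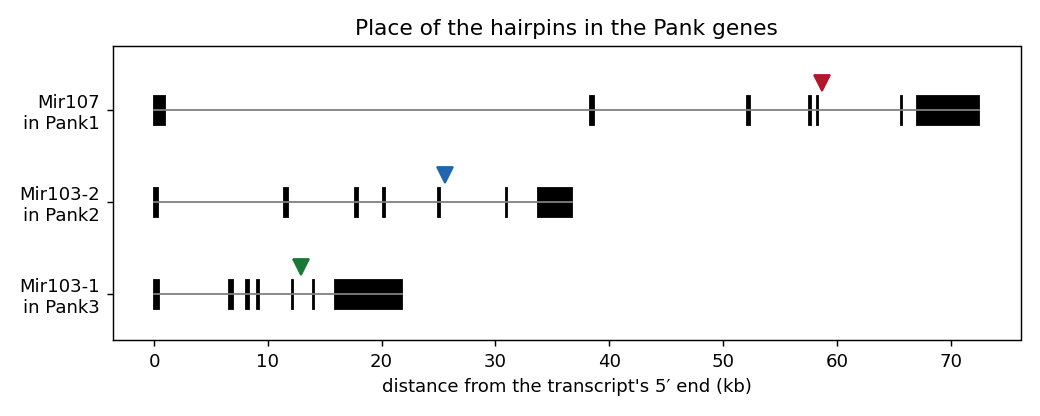
Exons (black boxes) of the longest coding transcript of Pank1, Pank2 and Pank3 that spans the hairpin, and the hairpin (triangle), against the distance from the 5′ end of the transcript in kb. The hairpin follows the fifth exon in each gene.

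The libraries held 4261976 counts on the strand of a miRNA gene in replicate 1 and 5680764 in replicate 2, and levels are given in CPM, a gene's count divided by this total and scaled, by which 1 count was worth 0.235 CPM in replicate 1 and 0.176 CPM in replicate 2. The tissue label was checked against marker miRNAs. All 9 epithelial markers (the miR-200 family, miR-192, miR-194 and miR-215) were detected and held 9.07% and 10.8% of the counts of replicates 1 and 2. The 5 mesenchymal markers held 18.5% and 17.7%, nearly all of it from 1 gene, Mir143 (177010 and 170594 CPM). The hepatocyte miRNA Mir122 held 0.0994% and 0.0448%. Of 5 neuronal markers with a row, 1 was detected in both libraries, Mir9-3. Both its mature arms have an identical copy elsewhere, so its count may leave out reads that map to several loci. The level of neural RNA is therefore not read from it. Also detected in both libraries were 4 of 7 skeletal and cardiac muscle markers, 2 of 3 pancreatic and 4 of 5 blood markers. The muscle markers held 0.0088% and 0.0101% of the counts of replicates 1 and 2. The pancreatic markers held 0.000164% and 0.000475%, and the blood markers 0.147% and 0.126%. The endothelial Mir126a held 3.08% and 3.36% of the counts. Intervals below are exact Clopper-Pearson 95% intervals and cover counting error only, since copies of a molecule made by PCR could not be told apart.

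Mir107 carried nearly all the counts of the family. It had 4886 counts in replicate 1 (1146 CPM, 95% interval 1115 to 1179) and 5874 counts in replicate 2 (1034 CPM, 1008 to 1061), a mean of 1090 ± 79.5 CPM (SD, n = 2). It ranked 91 of 1973 genes by mean level, 90 in replicate 1 and 94 in replicate 2. Both libraries thus gave Mir107 about the same place, although their counting intervals did not overlap.

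Mir103-2 was detected at a level far below Mir107. It had 259 counts in replicate 1 (60.8 CPM, 53.6 to 68.6) and 277 counts in replicate 2 (48.8 CPM, 43.2 to 54.9), a mean of 54.8 ± 8.49 CPM (SD, n = 2) and rank 221. The intervals of the libraries overlapped slightly.

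Mir103-1 was the lowest of the 3. It had 12 counts in replicate 1 (2.82 CPM, 1.45 to 4.92) and 23 counts in replicate 2 (4.05 CPM, 2.57 to 6.08), a mean of 3.43 ± 0.872 CPM (SD, n = 2) and rank 334. In both libraries it lay above the limit that a count of 0 allows, which was 3 counts (0.704 CPM for replicate 1, 0.528 CPM for replicate 2). None of the 3 genes had a read on the opposite strand in either library. In bulk tissue, fewer cells of a type and less RNA per cell cannot be told apart.

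Together the 3 genes held 0.115% ± 0.00871 of the counts (SD, n = 2). Of their sum, Mir107 made up 94.7% in replicate 1 (interval 94.1 to 95.3) and 95.1% in replicate 2 (94.6 to 95.7). Mir103-2 made up 5.02% and 4.49%, and Mir103-1 0.233% and 0.373%, in replicates 1 and 2. The order Mir107, Mir103-2, Mir103-1 was the same in both libraries, and no interval of one gene touched that of another. These are shares of the counts given to the genes, and not of mature miR-103 and miR-107.

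**Figure D3:**
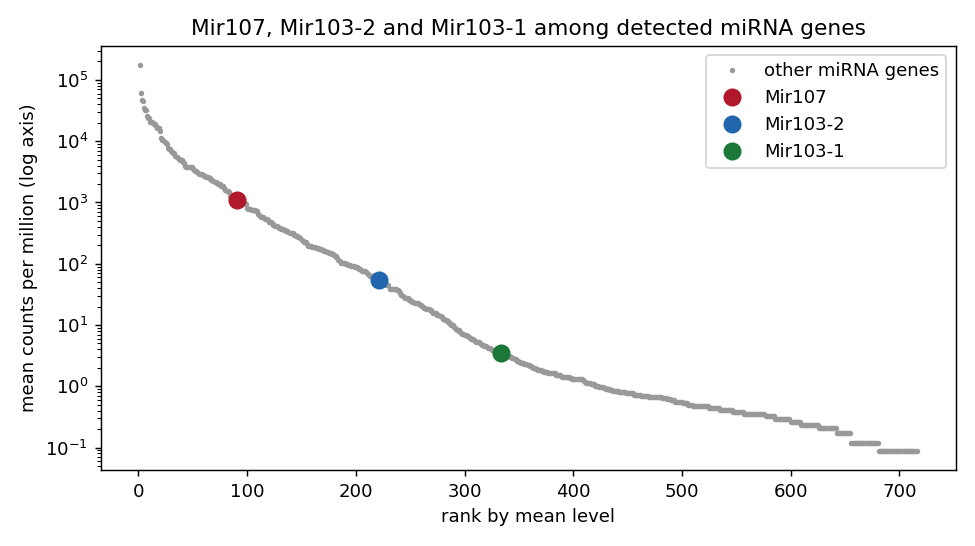
Mean level (CPM, log axis) of the 716 miRNA genes with at least 1 count, against their rank. Mir107 (1090 CPM, rank 91), Mir103-2 (54.8 CPM, rank 221) and Mir103-1 (3.43 CPM, rank 334) are coloured, and grey points are the other genes.

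The genes were then compared within each library, where depth is shared. Mir107 had 407 times the counts of Mir103-1 in replicate 1 (interval 233 to 789) and 255 times in replicate 2 (170.0 to 403), a mean log2 ratio of 8.29 ± 0.46 (SD, n = 2). The ratio of Mir107 to Mir103-2 was steadier, at 18.9 in replicate 1 (16.6 to 21.5) and 21.2 in replicate 2 (18.8 to 24.0), a mean log2 ratio of 4.32 ± 0.12. Mir103-1 had 0.0463 times the counts of Mir103-2 in replicate 1 (0.0236 to 0.0823) and 0.0830 times in replicate 2 (0.0518 to 0.127), a mean log2 ratio of -3.97 ± 0.58. For this last pair the exact two-sided binomial test against equal counts gave p = 1.41e-61 in replicate 1 and p = 1.64e-56 in replicate 2. For both pairs with Mir107 the p-value was too small to be computed. Each of the 3 log2 ratios was many times the spread between the replicates, over 6 comparisons made. How many miR-103-3p reads are missing from the Mir103 counts is not known, so no ratio here is given as one of mature miR-107 to mature miR-103.

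The uneven split between the Mir103 genes can be set beside other miRNAs with the same layout. An identical mature arm at 2 genes, each in an intron of a different protein-coding gene, was found for 5 pairs, of which 4 had counts. Mir103-2 (in Pank2) stood 16.8 ± 6.75 times above Mir103-1 (in Pank3), as the mean of 21.6 in replicate 1 and 12.04 in replicate 2. For miR-128, a neural miRNA, Mir128-1 (in R3hdm1, 77.6 CPM) stood 4.08 ± 0.618 times above Mir128-2 (in Arpp21, 19.3 CPM). For miR-26a, Mir26a-2 (in Ctdsp2, 38.3 CPM) stood 3.57 ± 0.512 times above Mir26a-1 (in Ctdspl, 10.7 CPM). For miR-218, which lies in the axon guidance genes Slit3 and Slit2, Mir218-2 (38.8 CPM) stood 2.71 ± 0.404 times above Mir218-1 (14.5 CPM). The lower of the Mir103 ratios, 12.04, lay above every ratio of the other 3 pairs in either library, of which the highest was 4.52. The hairpins of those pairs share 23 (miR-128), 25 (miR-26a) and 22 bases (miR-218), against 27 in Mir103-1 and Mir103-2. With 4 pairs no test of this difference was made, and the part of multi-mapping reads in it was not tested.

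The Mir103 genes were then set among all genes with a copied mature arm. The RefSeq table gave mature sequences for 916 of the rows, of which 87 had an arm identical to that of another gene. Of these, 55 were detected, with a median of 35.9 CPM, beside 2.21 CPM over all 716 detected genes. Where 1 of 2 listed arms had a copy, as in Mir103-1 and Mir103-2, 46 of 53 genes were detected with a median of 37.1 CPM. Mir103-2 took place 21 among these 46 and Mir103-1 place 39, so they fell on either side of the middle. Mir107 has no identical copy, and the 560 detected genes of that kind had a median of 2.05 CPM.

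Arms that differ by 1 base and lie in introns of different protein-coding genes were listed only for the pairs highest in mean level. Besides these 3 genes, that list held 1 other family, so families of lower level may be left out. It was miR-204 and miR-211, in the Trpm3 and Trpm1 genes (U17A, with the base of miR-211-5p first). There the levels were 23.0 ± 4.35 CPM for Mir204 and 0.352 ± 0.498 CPM for Mir211, which had 3 counts in replicate 1 and 0 in replicate 2.

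Placed among all miRNA genes that lie in an intron of a protein-coding gene on the same strand, 694 rows in all, Mir107 ranked 35 of 354 detected, Mir103-2 ranked 78 and Mir103-1 ranked 132. The median of those 354 genes was 1.06 CPM, below each of the 3. Of 1059 rows that no protein-coding transcript on the same strand spans, 278 were detected, with a median of 48.1 CPM. Some of these may lie inside a protein-coding gene on the other strand.

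The genes nearest in level to Mir107 were Mir154 (1113 ± 51.4 CPM), an imprinted miRNA of the Dlk1-Dio3 region, and Mir16-1 (1076 ± 67.6 CPM), which also carries AGCAGC. The nearest 3 above were Mir154, Mir1983 (1180 ± 58.5 CPM) and Mir96 (1198 ± 82.7 CPM), and the nearest 3 below were Mir16-1, Mir301 (1049 ± 88.0 CPM) and Mir148a (1012 ± 68.9 CPM). For 4 of these 6 the gap to Mir107 was smaller than the SD of Mir107, the exceptions being Mir1983 and Mir96. Mir103-2 stood between Mir493 (55.7 ± 7.12 CPM) and Mir3102 (52.0 ± 16.3 CPM), and Mir103-1 between Gm23450 (3.46 ± 0.414 CPM) and Mir1945 (3.34 ± 1.24 CPM). All 6 nearest neighbours of Mir103-2 (gaps of 0.968 to 5.87 CPM) and all 6 of Mir103-1 (gaps of 0.0292 to 0.147 CPM) lay within 1 SD of that gene. Likeness here is the difference of mean levels over 2 libraries.

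The wider AGCAGC group gives the family its context. Its 5′ ends are shown because the motif (AGCAGC in capitals) starts 1 base later than in the Pank miRNAs.
miR-107-3p: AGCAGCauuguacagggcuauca
miR-103-3p: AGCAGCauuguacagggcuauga
miR-322-5p: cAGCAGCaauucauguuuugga
miR-15a-5p: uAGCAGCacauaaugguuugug
miR-16-5p: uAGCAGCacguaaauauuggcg
miR-15b-5p: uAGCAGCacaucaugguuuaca
miR-503-5p: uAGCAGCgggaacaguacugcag
miR-195a-5p: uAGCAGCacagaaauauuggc

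In the Pank miRNAs AGCAGC covers bases 1 to 6 of the mature arm, and in the others bases 2 to 7, which places it inside their seed. In the RefSeq table only the 3 Pank genes had the motif at base 1, and 12 genes had it at base 2. The 13 genes listed for this group by name included Mir497b, whose RefSeq mature sequence does not hold AGCAGC, and Mir497, which has no row here. The 11 rows of this list that carry the motif held 2.29% ± 0.00979 of the counts (SD, n = 2). The Pank genes made up 5.01% ± 0.401 of that sum. Mir322, which lies with Mir503 on the X chromosome, made up 70.7% ± 0.0306.

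Mir107 was the third in the group. It had 1146 and 1034 CPM in replicates 1 and 2, below Mir322 with 16147 and 16255 CPM and Mir15a with 2420 and 2725 CPM. Mir16-1 with 1124 and 1028 CPM was not separated from Mir107 by more than the SD of either gene. Below them came Mir15b (771 and 736 CPM), Mir503 (523 and 496 CPM), Mir195a (401 and 420 CPM) and Mir16-2 (251 and 239 CPM). Mir103-2 and Mir103-1 were the lowest of the 10 that had counts, and Mir195b had 0. Mir322 stood 14.9 ± 1.16 times above Mir107. Mir16-1 and Mir16-2 carry the same miR-16-5p, as the Mir103 genes carry the same miR-103-3p, with the same doubt about reads that map to both.

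**Figure D4:**
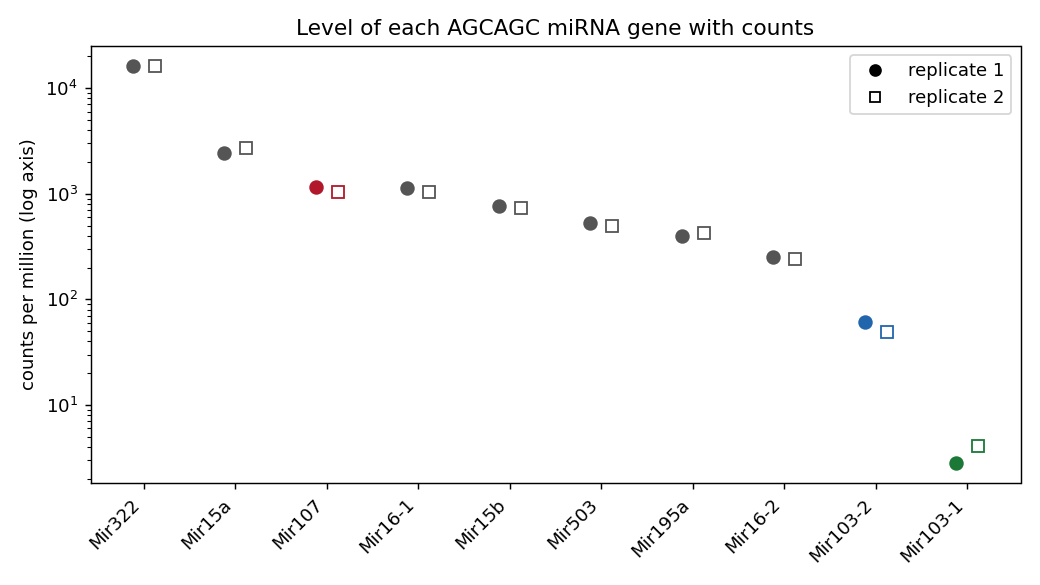
Level (CPM, log axis) of the 10 genes with AGCAGC and counts, in replicate 1 (filled circles) and replicate 2 (open squares), ordered by mean. Mir107 (red) sits between Mir15a and Mir16-1, and Mir103-2 (blue) and Mir103-1 (green) sit at 54.8 and 3.43 CPM on average.

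The last question is whether the replicates differed in these genes. None of the 3 was called different after TMM scaling. TMM sets library sizes on the assumption that most genes do not differ. An exact two-sided conditional binomial test, adjusted by Benjamini and Hochberg's method over 364 genes with at least 20 counts, called 189 of them (51.9%) and 0 of these 3, also 0 at an unadjusted p under 0.05. The test compares 2 libraries and not conditions, and covers counting error only. The log2 ratio of replicate 1 to replicate 2 was 0.019 for Mir107 (95% interval -0.036 to 0.074, exact test, adjusted p 0.596). For Mir103-2 it was 0.19 (-0.062 to 0.44, exact test, adjusted p 0.213), and for Mir103-1 it was -0.63 (-1.79 to 0.41, exact test, adjusted p 0.329). The interval of Mir103-1, from 12 and 23 counts, leaves room for a difference of more than 2-fold. The median absolute log2 ratio was 0.21 over all genes tested, 0.60 over the 77 genes with fewer than 100 counts, 0.20 over 106 genes with 200 to 2000 counts and 0.16 over 81 genes with more, up to 20000. Mir107 lay well below the median of the last range, Mir103-2 close to that of genes with its counts and Mir103-1 close to the median of the lowest range.

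For Mir107 and Mir103-2 the call turned with the scaling, and the values above hold relative to the other genes. TMM lowers every log2 ratio by 0.13 against total counts. With total counts, 57.7% of all genes tested were called in either direction and 45.1% as higher in replicate 1, among them 2 of these 3. Mir107 then stood at 0.15 on the log2 scale (exact test, adjusted p 3.3e-07) and Mir103-2 at 0.32 (exact test, adjusted p 0.0212). The median of all genes was then 0.15, the same as Mir107 to 2 decimals, against 0.018 with TMM. With TMM, 10 genes of the AGCAGC group could be tested, of which 0 were called higher in replicate 1, beside 27.5% of all genes, and 3 higher in replicate 2 (Mir322, Mir15a and Mir195a), beside 24.5% of all genes. With total counts, 3 of the 10 were higher in replicate 1 (Mir107, Mir16-1 and Mir103-2), beside 45.1% of all genes, and 1 was higher in replicate 2 (Mir15a), beside 12.6%. The median log2 ratio of the group was -0.061 with TMM, beside 0.018 over all genes tested, and turned to 0.069 with total counts, beside 0.15.

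**Figure D5:**
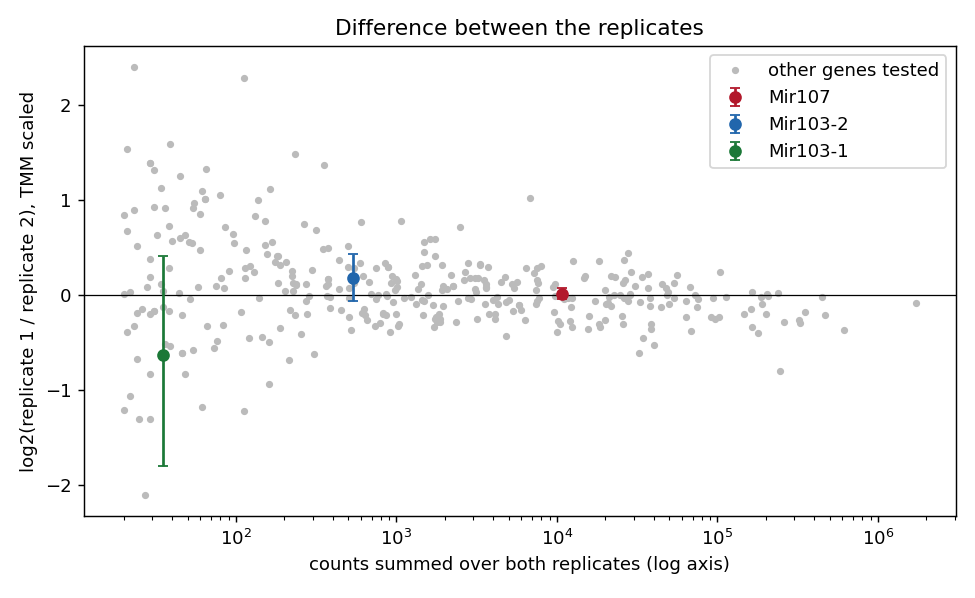
Log2 ratio of replicate 1 to replicate 2 after TMM scaling (y axis) against the counts summed over both libraries (log x axis) for 364 genes. Bars are 95% intervals of Mir107 (0.019), Mir103-2 (0.19) and Mir103-1 (-0.63), each of which holds 0, and grey points are the other genes.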

How the data were processed

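The tables that the authors deposited hold raw counts of reads for each miRNA gene, without normalization, 1 table a library. Their readme texts name mm10 and GENCODE M4. For the aligner, the counter, the mismatches allowed and any trimming, the entry is: not given in the sources used here. Of the 3 count columns, both strand columns sum to the unstranded one, which does not tell the strands apart. The one used held 4261976 of 4428519 unstranded counts in replicate 1 and 5680764 of 5896305 in replicate 2. It was taken to hold reads on the strand of the gene. Totals exclude the 4 rows without a gene, namely unmapped reads (19.5% in replicate 1, 17.2% in replicate 2), multi-mapping reads (26.2%, 25.7%), reads outside annotated genes (3.69%, 2.88%) and ambiguous reads (0).

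Counts were divided by the total over 1973 gene rows and scaled to CPM. Symbols and introns were taken from GENCODE M21, also on mm10 (1894 identifiers matched, the other 79 held 2 counts), and sequences from RefSeq on GRCm38.p6. With 1 group, edgeR's quasi-likelihood test had no contrast, so replicates were compared by an exact binomial test. It used TMM sizes (edgeR 4.0.16), a prior of 0.5 counts and adjustment at 0.05. The test was tried on simulated data that held counting error only, with total counts as library sizes. Its use with TMM sizes, or with spread between replicates, was not tried. Alternatives were total counts, DESeq2 1.42.0 size factors, unstranded counts, other totals, priors and count minimums, and each replicate alone. Python 3.11.15, scipy 1.17.1 and R 4.3.3 were used. Genes were named by rule: the family, the AGCAGC list, the level neighbours, intronic copy and 1-base pairs, and markers. The members and lists were chosen with earlier results of these data known. The labels do not say that the pools shared no litter. The p-values cover counting error in these libraries only, not the spread between pools.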

Additional observations from a re-analysis of the deposited data

Results flagged for a closer look

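Reads in the opposite-strand column, outside the counts used here, stood above the limit of 3 counts at Mir497b, which was listed with the AGCAGC group by name but whose RefSeq mature sequence does not hold the motif. Mir497b had 1804 opposite-strand counts in replicate 1 and 2789 in replicate 2, which is 457 ± 47.9 CPM (SD, n = 2), against 2 and 1 counts on its own strand. Mir497, whose 5p arm does carry AGCAGC and which RefSeq places on the opposite strand at the same locus, has no row here. Which gene the reads came from was not tested. At Mir107, Mir103-2 and Mir103-1 the opposite-strand count was 0 in both libraries.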

How the results depend on the processing

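Of 56 recomputed values of 12 results, 43 were counted as kept. For ratios this meant the same direction and side of the threshold, and for levels and medians a move smaller than the spread between replicates. The number of genes called had only to stay within a fixed fold range, whatever its split by direction. With 2 replicates, a mean level with either left out always lies within that spread. Ratios between the family genes could not change with unstranded counts, as none had opposite-strand reads. Such values were kept by construction. With total counts, Mir107 and Mir103-2 were called between replicates (log2 0.15 and 0.32). Without a count minimum, which changes the scaling factors, the log2 ratio of Mir107 was -0.021, not called (exact test, adjusted p 0.713, over a range from 3.3e-07 to 0.993). With a total that omits the most abundant gene, Mir107 stood at 1320 CPM and Mir103-2 at 66.3 CPM. With all reads as the total, Mir107 stood at 549 CPM, Mir103-2 at 27.5 CPM and Mir103-1 at 1.74 CPM. These shifts follow from the totals, which scale every gene alike. The median of the genes with an identical copy was 5.51 CPM over all rows and 35.9 over rows with counts. The median of the AGCAGC list was 460.2 CPM over 12 rows that include Mir497b, which lacks the motif, 466 with unstranded counts and 509.5 over rows with counts. Without Mir497b, an alternative chosen after seeing the data, it was 509.5 CPM, and 491 with unstranded counts as well. With either replicate left out, the log2 ratio of Mir107 to Mir103-1 ranged from 7.97 to 8.61, of Mir107 to Mir103-2 from 4.24 to 4.40 and of Mir103-1 to Mir103-2 from -4.38 to -3.56. The count of genes called between replicates ranged from 174 to 210, and the split of higher in replicate 1 and in replicate 2 was 100 and 89, against 164 and 46 with total counts and 77 and 105 without a count minimum. Mir103-1 had too few counts for the minimum of 100. No replicate could be left out of the comparison between replicates. No paired analysis was possible because the labels give 1 group. Depth limits Mir103-1 most, at 12 and 23 counts.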

Other observations

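The RefSeq table holds 3 further genes with AGCAGC at base 2 of a mature arm, Mir6342, Mir6353 and Mir6419, which were added after their values were seen. All 3 had 0 counts in both libraries, which allows up to 0.704 CPM in replicate 1 and 0.528 CPM in replicate 2.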
